A study of Eleocharis dulcis with 24 samples.

Results

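A set of 49 genes, of 35975 in the deposited table, stood at 2 TPM or more in all 12 libraries from wild corms of *Eleocharis dulcis* and under 0.5 TPM in all 12 libraries from cultivated corms. TPM is a length-corrected share of a library's RNA, scaled to a fixed total. The genes, here called wild-only genes, were chosen by these TPM values in all 24 libraries, so the difference between the origins is their definition and is described without a test. The limits do not mean absence: 39 of the 49 had a value above 0 in at least 1 cultivated library, and 10 were listed at 0 in all 12.

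*Eleocharis dulcis*, the Chinese water chestnut, is a sedge grown in wet fields for its corm. The corm is a swollen underground stem in which the plant stores starch and sugars, and from which it regrows. During swelling a corm passes from dividing and expanding tissue to tissue that fills and then rests, so RNA levels of many genes move with the stage.

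RNA was taken from corms of 2 origins, cultivated and wild, at 4 stages: initial, middle and late swelling, and maturity. The 8 groups had 3 biological replicates each, 24 libraries in all, sequenced on the DNBSEQ-T7 platform. All groups are corm tissue. The labels give no plant line, growing site, age in days, treatment or pooling for either origin, so a line or site cannot be told apart from the origin. IDs are not paired with gene names in the sources used here, so no function is given and the tissue was not checked against marker genes. In bulk tissue, fewer cells of a type and less RNA per cell cannot be told apart. An absent gene, a silent gene and a gene whose wild form fits the reference better cannot be told apart from these values either. Library totals lay between 999991 and 1000002 TPM, which leaves the sequencing depth unknown. The 3 wild libraries of a stage had Spearman correlations across genes of 0.978 to 0.990, against 0.853 to 0.962 between wild stages.

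Among the genes with 2 TPM or more in all 12 wild libraries, 12825 in number, the 49 made up 0.382%. Their number depends on the cultivated limit: 11 genes stayed under 0.1 TPM in every cultivated library, 49 under 0.5, 89 under 1, 162 under 2 and 498 under 5. Just inside the limits were EdulChr13G00058320, with a lowest wild value of 2.05 TPM, and EdulChr94G00299990 and EdulChr101G00314650, with 2.07 and 2.09 TPM. The highest cultivated values inside were 0.49 TPM for EdulChr101G00314780, 0.47 TPM for EdulChr23G00093850 and 0.45 TPM for EdulChr47G00174570. Just outside on the wild side were novel2228 with a lowest wild value of 1.94 TPM, novel436 with 1.88 TPM and EdulChr12G00051450 with 1.84 TPM. On the cultivated side EdulChr88G00286330 reached 0.50 TPM and novel515 reached 0.51 TPM. A further 23 genes met the limits in 23 of the 24 libraries, so the border runs through a continuous range of values.

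**Figure D1:**
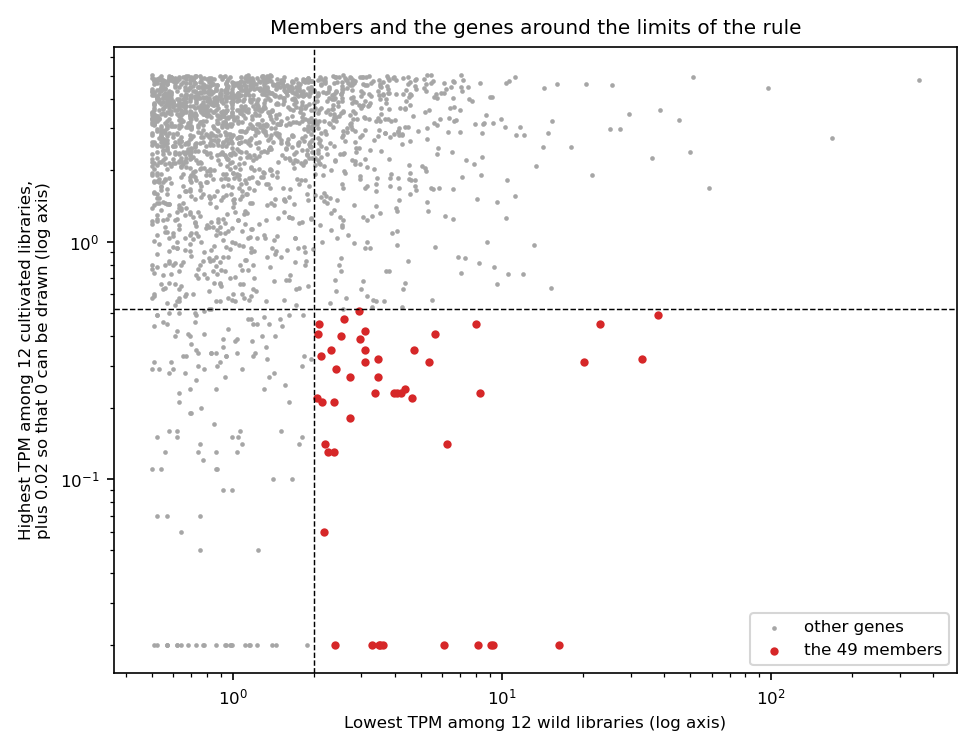
Each point is a gene, placed by its lowest TPM among the 12 wild libraries (x, log axis) and its highest TPM among the 12 cultivated libraries (y, log axis, with 0.02 added so that 0 can be drawn). Dashed lines mark 2 and 0.5 TPM, the 49 wild-only genes are red, and grey points close to both lines show that no gap separates them from other genes.

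Together the wild-only genes held little of the wild RNA, and their sum moved up and down with the stage. It was 1825 ± 38.8 TPM at the initial stage, 1035 ± 34.7 at middle, 1617 ± 73.9 in late swelling and 535 ± 17.9 at maturity (SD, n = 3 each). After median-of-ratios scaling of the wild libraries the sums were 1329 ± 16.9, 712 ± 19.8, 1766 ± 91.2 and 931 ± 36.2 (SD, n = 3 each), so that late swelling was highest and middle swelling lowest. In cultivated corms the same genes summed to 7.26 ± 0.159, 2.48 ± 0.147, 1.91 ± 0.556 and 1.13 ± 0.194 TPM (SD, n = 3 each). The 4 highest genes made up 49.7% of the wild sum at the initial stage and 29.3% at maturity. Means over the 12 wild libraries ran from 2.78 to 163 TPM with a median of 11.2 TPM. The median was 19.0 TPM over all 12825 genes with the same wild minimum. A mean of at least 50 TPM was reached by 6 of the 49, at least 20 by 17 and at least 10 by 28.

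**Figure D2:**
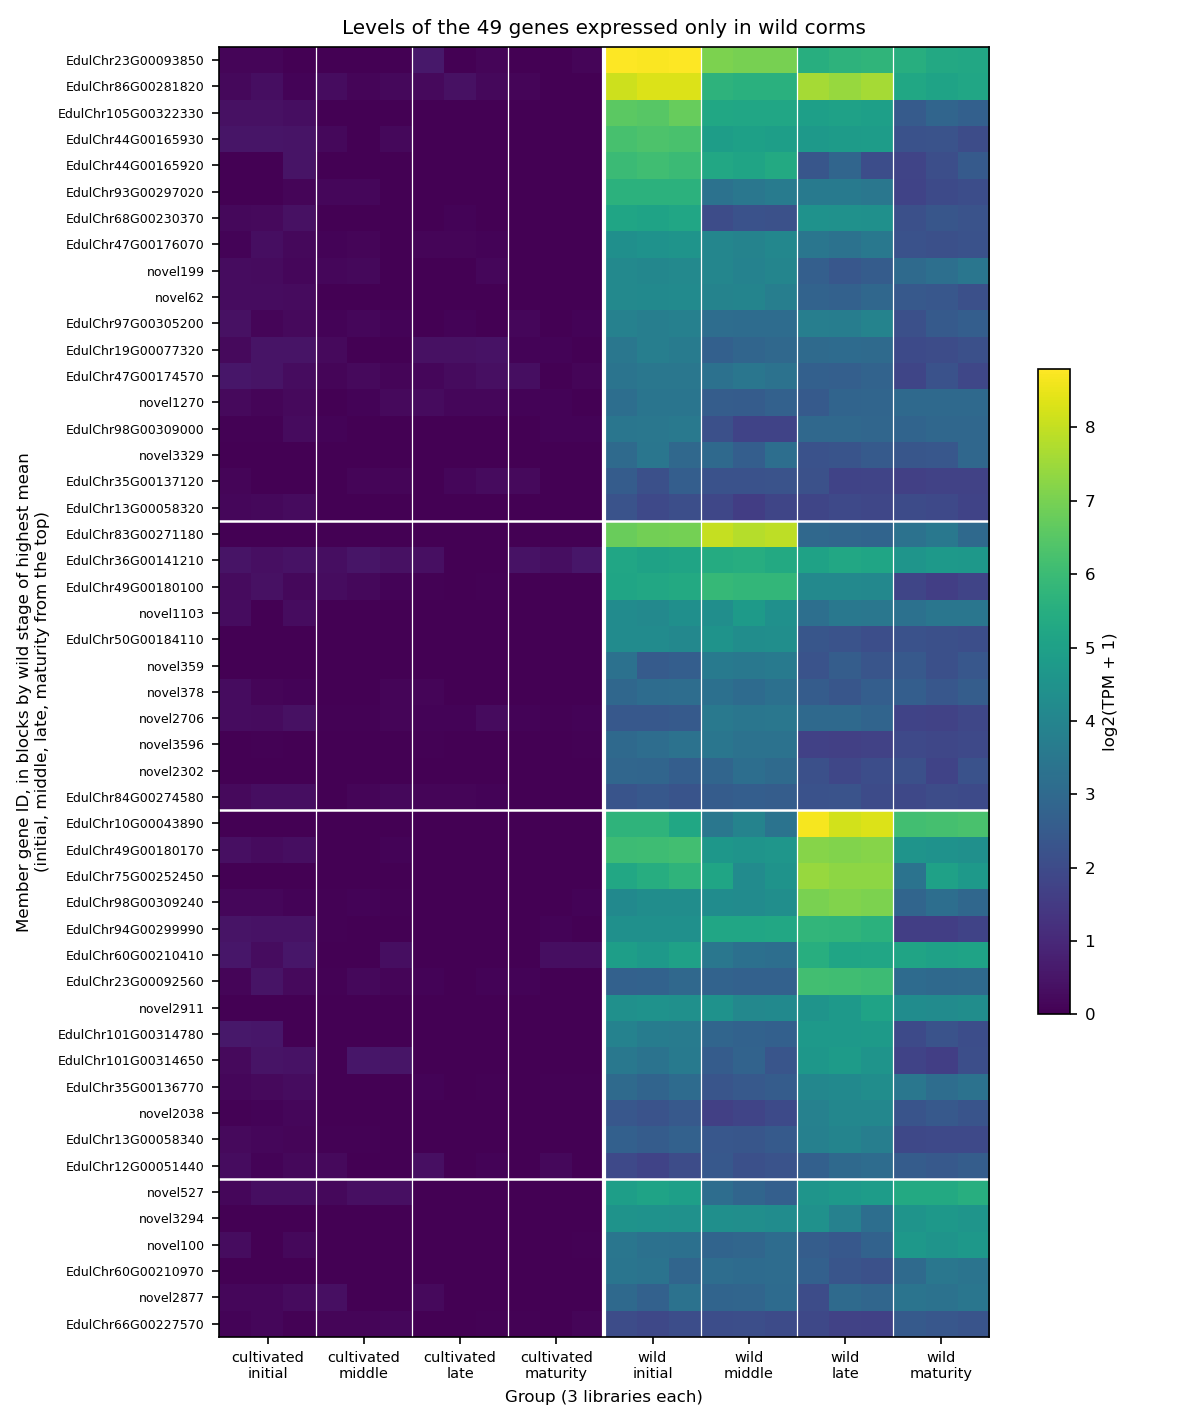
Rows are the 49 wild-only genes in blocks by the wild stage of their highest mean (18 initial, 11 middle, 14 late, 6 maturity), columns are the 24 libraries and colour is log2(TPM + 1). The cultivated columns are near 0 throughout because of how the genes were chosen, while the wild columns show different stage profiles.

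By stage of highest wild mean, 18 genes were highest at initial swelling, 11 at middle swelling, 14 at late swelling and 6 at maturity. In 38 of the 49, all 3 libraries of that stage lay above all 9 other wild libraries (77.6%, against 74.2% of the genes with the wild minimum). This was so for 13, 7, 14 and 4 genes of the respective blocks. The same counts by block were not made for the genes with the wild minimum. Among all 12825 genes with the wild minimum, 34.7% were highest at initial, 37.9% at middle, 18.1% in late swelling and 9.33% at maturity. The shares of the wild-only genes were 36.7, 22.4, 28.6 and 12.2%. The blocks moved after median-of-ratios scaling. It divides each library by the median ratio of its genes to their geometric means, over genes above 0 in all 12 wild libraries. Then 11, 5, 13 and 20 wild-only genes were highest at the respective stages. Their shares of 22.4, 10.2, 26.5 and 40.8% lay beside 19.4, 11.6, 24.6 and 44.4% of the genes with the wild minimum. On the scaled values, libraries of the highest stage lay above all other wild libraries in 35 of the 49 (71.4%, against 77.9%).

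The highest of them, EdulChr23G00093850, was an initial-stage gene. Its wild libraries held 442, 430.3 and 437 TPM at the initial stage, 131, 125 and 128 TPM at middle, 44.9, 49.96 and 52.6 TPM in late swelling, and 44.6, 38.4 and 38.0 TPM at maturity. In deposited TPM, initial, middle and late libraries did not overlap, and late and mature libraries did not either, although 44.9 and 44.6 TPM nearly met. From initial to maturity it fell by 3.41 on the log2 scale (SE 0.07, limma adjusted p = 1.07e-13). Changes are differences of log2(TPM + 1), a scale that makes those of low genes too small. From late swelling to maturity the gene changed by -0.28 (log2, limma adjusted p = 0.00171) in deposited TPM. After median-of-ratios scaling it changed in the other direction, by 0.38 (limma adjusted p = 0.000125). In cultivated corms it was at 0 in 7 of 12 libraries and at most 0.47 TPM.

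EdulChr86G00281820 was also highest at the initial stage but had a second high at late swelling. It held 280.5, 319.7 and 319.8 TPM at initial, 50.3, 47.0 and 47.3 TPM at middle, 192, 172 and 195 TPM in late swelling, and 36.8, 33.1 and 36.0 TPM at maturity. No 2 of these 4 stages overlapped. Its log2 changes in the 3 successive steps were -2.64, 1.93 and -2.37 (SE 0.06 each, limma adjusted p = 1.27e-11, 4.79e-11 and 4.68e-12).

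EdulChr10G00043890 was listed at 0 in every cultivated library and was the strongest late-stage gene. Its wild libraries held 51.3, 51.4 and 36.8 TPM at initial, 10.2, 14.2 and 9.22 TPM at middle, 411, 288.5 and 321 TPM in late swelling, and 68.8, 73.1 and 76.1 TPM at maturity. The stages did not overlap. The rise from middle to late was 4.81 on the log2 scale (SE 0.17, limma adjusted p = 6.38e-11), followed by a fall of -2.20 to maturity (SE 0.17, limma adjusted p = 8.47e-08).

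EdulChr83G00271180, also listed at 0 in all 12 cultivated libraries, was a middle-stage gene. It held 109, 121 and 124 TPM at initial, 258, 226 and 239 TPM at middle, 6.91, 6.39 and 6.06 TPM in late swelling, and 8.90, 10.3 and 6.99 TPM at maturity. The fall from middle to late was -5.02 on the log2 scale (SE 0.11, limma adjusted p = 9.83e-13). Late and mature libraries lay next to each other without overlap, with 6.91 TPM as the highest late and 6.99 TPM as the lowest mature value.

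EdulChr49G00180170 followed the down, up, down course of EdulChr86G00281820 with its high at late swelling. It held 63.7, 65.9 and 68.8 TPM at initial, 23.98, 22.6 and 23.7 TPM at middle, 145, 139 and 144 TPM in late swelling, and 22.2, 21.4 and 20.2 TPM at maturity. In cultivated corms it stood at 0.29, 0.20 and 0.24 TPM at the initial stage and at 0 in 8 of the 9 later libraries.

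EdulChr75G00252450 was likewise listed at 0 in every cultivated library, and its replicates lay far apart at middle swelling and maturity. Its libraries held 37.9, 43.8 and 51.8 TPM at initial, 35.1, 18.0 and 21.6 TPM at middle, 173, 155 and 156 TPM in late swelling, and 9.07, 31.6 and 26.3 TPM at maturity. The late libraries stood clear of all others, and middle and mature libraries overlapped. From initial to maturity it fell by 1.12 (log2, SE 0.36, limma adjusted p = 0.0108). Without replicate 1 of the mature libraries, the one at 9.07 TPM, the change was -0.60 (adjusted p = 0.024), and after median-of-ratios scaling its direction turned, at 0.089 (limma adjusted p = 0.828).

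**Figure D3:**
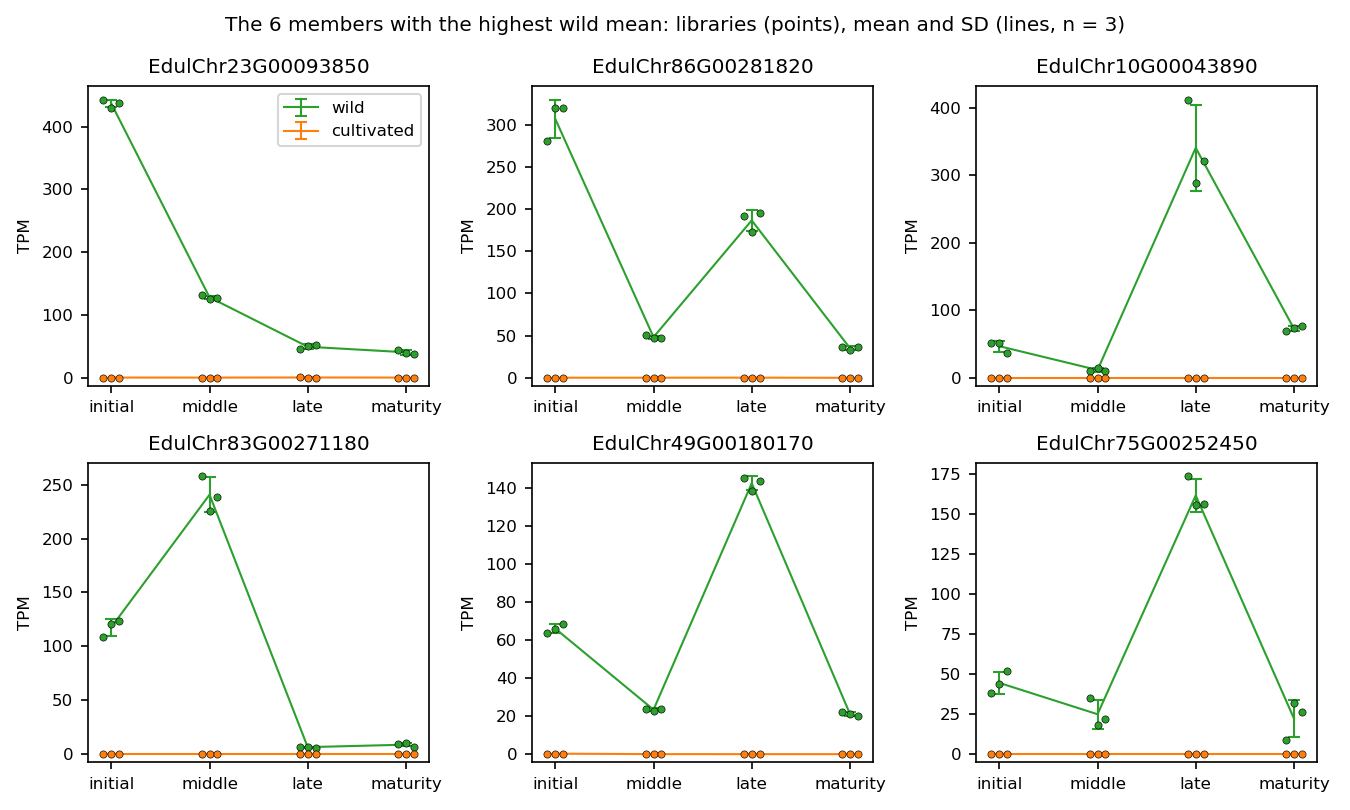
TPM (y) by stage (x) of the 6 wild-only genes with the highest wild mean, with points for libraries and lines for the mean and SD of 3 libraries, wild in green and cultivated in orange. EdulChr23G00093850 and EdulChr86G00281820 are highest at initial, EdulChr83G00271180 at middle, and the other 3 at late swelling, while no cultivated library exceeds 0.47 TPM.

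The next 4 genes by wild mean covered other courses. EdulChr98G00309240 was flat and then high at late swelling alone, with 17.1 to 18.9 TPM at initial, 17.7 to 19.1 at middle, 129 to 139 in late swelling and 6.25 to 7.94 at maturity. EdulChr105G00322330 stood at 94.9, 91.0 and 107 TPM at initial and at 4.72, 6.25 and 5.46 TPM at maturity, a fall of -3.93 (log2, SE 0.08, limma adjusted p = 1.75e-13). EdulChr44G00165930 had the largest fall of the 49 from initial to maturity, from 75.0, 79.6 and 75.7 TPM to 3.68, 3.72 and 3.08 TPM. Its log2 change was -4.12 (SE 0.06, limma adjusted p = 1.09e-14). EdulChr36G00141210 moved least among the leading 10: it held 32.6 to 35.4 TPM at initial, 39.1 to 43.9 at middle, 32.4 to 37.8 in late swelling and 23.1 to 25.2 at maturity. In cultivated corms 10 of 12 libraries had a value above 0 for it, up to 0.43 TPM.

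The stage changes within wild corms used no cultivated library and were tested over all genes with limma. The rule does bear on them in one respect: a gene that fell under 2 TPM at any wild stage could not be a member. Shares are therefore set beside those of the 12825 genes with the same wild minimum, given first, and of all 25235 genes tested. A gene is counted as higher or lower at an adjusted p under 0.05 with a change of at least 2-fold. The p-values measure the spread among 3 libraries of a stage.

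From initial to middle swelling, 11 of the 49 were lower (22.4%, against 5.74% of genes with the wild minimum and 6.21% of all genes tested) and 2 were higher (4.08%, against 3.49 and 4.64%). Falling genes included EdulChr68G00230370, which went from 34.8 ± 1.37 to 3.44 ± 0.305 TPM (SD, n = 3 each), and EdulChr93G00297020, from 49.1 ± 0.274 to 10.2 ± 1.30 TPM. The 2 that were higher were EdulChr83G00271180 and novel2706, which rose from 4.44 ± 0.136 to 10.2 ± 0.456 TPM (SD, n = 3 each). The median log2 change was -0.25 in the wild-only genes and 0.03 in the genes with the wild minimum.

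From middle to late swelling, 15 were higher (30.6%, against 9.58 and 8.41%) and 11 lower (22.4%, against 22.8 and 28.7%). The rises included EdulChr23G00092560, which stood at 5.94, 5.68 and 5.71 TPM at middle and at 69.2, 68.1 and 63.6 TPM in late swelling, which is 3.33 higher in log2 (SE 0.06; limma adjusted p = 3.67e-13). Among the falls, EdulChr44G00165920 went from 36.7 ± 2.70 to 4.57 ± 1.61 TPM and EdulChr50G00184110 from 20.03 ± 1.61 to 3.74 ± 0.437 TPM (SD, n = 3 each). The median log2 change was -0.23, against -0.49.

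From late swelling to maturity, 19 were lower (38.8%, against 25.8 and 29.4%) and 1 was higher (2.04%, against 4.5 and 4.13%). The fall of EdulChr98G00309240, from 134 ± 4.63 to 6.94 ± 0.887 TPM (SD, n = 3 each), was -4.09 on the log2 scale (SE 0.07, limma adjusted p = 9.26e-14). EdulChr94G00299990 had a change of nearly that size, -4.05 (SE 0.06, limma adjusted p = 1.34e-14), and fell from 54.8, 53.2 and 47.8 TPM to 2.11, 2.07 and 2.37 TPM, which left it just above the 2 TPM limit. The 1 gene that was higher was novel100, at 5.03, 4.36 and 5.82 TPM in late and 24.5, 22.7 and 24.6 TPM in mature libraries, a rise of 2.04 (log2, SE 0.10, limma adjusted p = 6.94e-10).

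From initial to maturity as a whole, 22 were lower (44.9%, against 43.6 and 49.7%) and 1, again novel100, was higher (2.04%, against 5.31 and 4.59%), shares near those of the genes with the wild minimum. In deposited TPM, the largest falls after that of EdulChr44G00165930 were those of EdulChr105G00322330, EdulChr44G00165920, EdulChr93G00297020 and EdulChr83G00271180, at -3.93, -3.90, -3.70 and -3.62 (log2). After median-of-ratios scaling these changes were -2.78, -2.80, -2.63 and -2.44. That of EdulChr49G00180100 was then -2.47, a larger fall than that of EdulChr83G00271180. EdulChr44G00165920 and EdulChr93G00297020 ended at 3.47 ± 1.04 and 2.86 ± 0.455 TPM (SD, n = 3 each). Tested for a difference among any of the stages, 48 of 49 passed, against 99.3% of genes with the wild minimum and 98.6% of all genes tested. The exception was novel2877 (limma adjusted p = 0.051). After median-of-ratios scaling it was higher at maturity than in late swelling, by 1.35 (log2, limma adjusted p = 0.000118).

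TPM values share a fixed total, and the median change of all 25235 genes tested was 0.07, -0.58, -0.48 and -0.99 (log2) for the 3 successive steps and for maturity against initial. After median-of-ratios scaling of the wild libraries these medians were 0.01, -0.04, -0.07 and -0.11. On the scaled values 11 wild-only genes were lower and 0 higher from initial to middle (22.4% lower, against 6.27% of genes with the wild minimum). By the adjusted p and 2-fold limit, 19 were higher and 5 lower from middle to late (38.8 and 10.2%, against 18.1 and 5.57%). From late to maturity 7 were higher and 16 lower (14.3 and 32.7%, against 16.2 and 11.9%). From initial to maturity the split turned from 1 higher and 22 lower to 13 higher and 11 lower (26.5 and 22.4%, against 23.5 and 11.4%). Beside the 0 from initial to middle, 8 were higher at an unadjusted limma p under 0.05 with no limit on fold. The share of all genes at that limit was not counted.

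**Figure D4:**
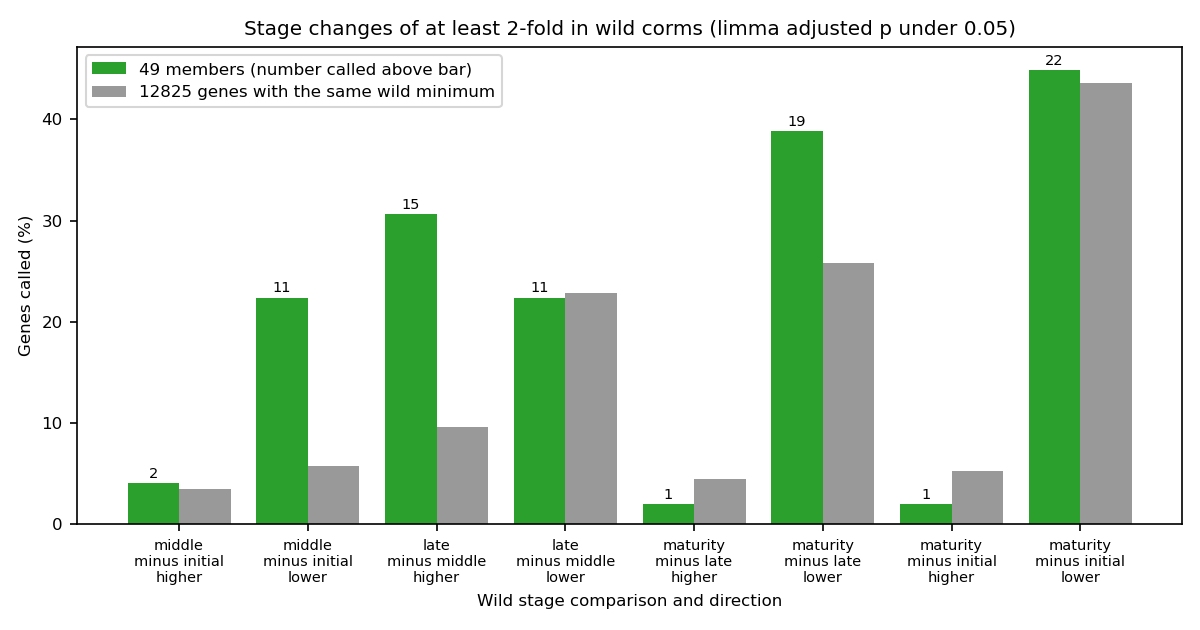
Percent of genes (y) with a change of at least 2-fold at a limma adjusted p under 0.05, for each wild stage comparison and direction (x), in the 49 wild-only genes (green, with their number above the bar) and in the 12825 genes with the same wild minimum (grey). The green bars are above the grey ones for falls from initial to middle (22.4 against 5.74%), rises from middle to late (30.6 against 9.58%) and falls from late to maturity (38.8 against 25.8%).

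The steps were then read together for each gene, a description chosen after the values were seen. A course of no called change followed by a rise to late swelling and a fall to maturity was seen in 7 of the 49 (14.3%, against 3.89% of genes with the wild minimum). These were EdulChr75G00252450, EdulChr98G00309240, EdulChr23G00092560, EdulChr101G00314780, EdulChr101G00314650, EdulChr13G00058340 and novel2038. A fall, a rise and a second fall were seen in 4 (8.16%, against 1.84%): EdulChr86G00281820, EdulChr49G00180170, EdulChr10G00043890 and EdulChr68G00230370. After scaling all 7 and all 4 genes had the same course. These courses then held 8 and 4 wild-only genes, against 4.02 and 1.67% of genes with the wild minimum. A further 3 genes (6.12%, against 1.08%) were novel527, EdulChr60G00210410 and EdulChr98G00309000. In them the fall to the middle stage and the rise to the late stage were not followed by a called change. After scaling 2 of these 3 and 2 of the 49 had that course, against 2.1% of genes with the wild minimum. Levels of novel527 were 29.6, 33.1 and 29.9 TPM at initial, 7.76, 6.37 and 5.33 TPM at middle, 23.2, 26.3 and 28.2 TPM in late swelling, and 39.6, 39.6 and 45.0 TPM at maturity. It thus ended above its start, with no overlap between initial and mature libraries.

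Most other courses were plainer. No step reached a called 2-fold change in 15 genes (30.6%, against 46% of genes with the wild minimum), and 9 of these had no called step after scaling either. A single fall from middle to late was seen in 8, a share of 16.3% against 17.1% of genes with the wild minimum. Of these, 6 had IDs of the form novel100 (novel2302, novel359, novel62, novel1103, novel3596 and novel199). After scaling 3 of the 8 had this course: novel3596, EdulChr44G00165920 and EdulChr50G00184110. Falls in the first and the last step, with no called change between, were seen in EdulChr93G00297020, EdulChr105G00322330 and EdulChr44G00165930 (6.12%, against 0.975%). All 3 had this course after scaling, against 0.335% of genes with the wild minimum. EdulChr94G00299990, EdulChr97G00305200 and EdulChr47G00176070 had a called fall to maturity and no other called step (6.12%, against 14.9%). After scaling 0 wild-only genes had this course, against 4.97% of genes with the wild minimum. EdulChr94G00299990 then had a called rise to late swelling before its fall. EdulChr49G00180100 fell in both later steps, from 56.7 ± 1.67 TPM at middle to 16.4 ± 0.0451 in late swelling and 2.38 ± 0.219 at maturity (SD, n = 3 each). EdulChr35G00136770 had a single rise, from 4.45 ± 0.480 TPM at middle to 17.3 ± 1.63 in late swelling (SD, n = 3 each).

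In the deposited TPM, the smallest ratio of highest to lowest wild stage mean was that of EdulChr13G00058320, 1.37, followed by novel2911 and novel3294. After scaling the ratios of these 3 were 2.86, 2.51 and 3.10, and the smallest was that of EdulChr47G00174570, 1.40. EdulChr13G00058320 was also the weakest of the 49, with 3.71, 2.88 and 3.34 TPM at initial, 2.62, 2.05 and 2.59 at middle, 2.54, 2.81 and 2.63 in late swelling, and 3.02, 2.81 and 2.39 at maturity. Its initial libraries lay above all middle and late ones by a small margin, and the other stages overlapped. novel2911 and novel3294, both listed at 0 in all cultivated libraries, had means of 21.1 and 19.5 TPM over the wild libraries. The late libraries of novel3294 stood at 20.6, 13.7 and 8.11 TPM, a wider spread than at its other stages. Their changes from initial to maturity, -0.17 for novel2911 and 0.13 for novel3294 (log2), did not pass limma's test (adjusted p = 0.197 and 0.583). After scaling they were 1.02 and 1.33 and passed (adjusted p = 6.19e-06 and 0.000112).

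Apart from these 3 and EdulChr36G00141210, the genes with no called step had wild means under 10 TPM. Of these, EdulChr66G00227570, EdulChr84G00274580, EdulChr35G00137120 and EdulChr12G00051440 had wild means of 3.22 to 4.52 TPM. novel1270, EdulChr47G00174570, EdulChr19G00077320, novel2877, EdulChr60G00210970, novel378 and novel3329 had wild means of 5.94 to 7.33 TPM. EdulChr19G00077320 and EdulChr47G00174570 had no single called step but were lower at maturity than at initial, by -1.58 and -1.48 (log2, limma adjusted p = 1.30e-09 and 1.10e-08). After scaling these changes were -0.52 and -0.43, short of the 2-fold limit.

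IDs of 2 kinds occur in the table: 33415 begin with EdulChr and 2560 are of the form novel100, here called number-only IDs. The sources used here do not say how the features behind number-only IDs were built or whether they overlap EdulChr genes, and strand is not given, so reads of overlapping features could be split between them. The rule made no use of IDs. Number-only IDs were 16 of the 49 (32.7%), against 454 of the 12825 genes with the wild minimum (3.54%) and 7.12% of the whole table. Put the other way, 3.52% of number-only IDs with the wild minimum were wild-only, and 0.267% of EdulChr IDs. In the mirror set of 59 genes at 2 TPM or more in all cultivated and under 0.5 TPM in all wild libraries, 25 had number-only IDs (42.4%). No test was made of these shares.

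Levels and stage ranges differed by kind of ID, without a test. Among wild-only genes with number-only IDs the median wild mean was 6.97 TPM, against 15.7 TPM for EdulChr IDs, and the highest was that of novel527 at 26.2 TPM. The highest stage mean was 2.53 times the lowest in the median number-only gene and 6.72 times in the median EdulChr gene. The same medians were 2.55 and 6.73 after scaling. Over all genes with the wild minimum the medians hardly differed, at 2.81 for number-only and 2.84 for EdulChr IDs. From initial to maturity 3 of the 16 number-only genes changed at least 2-fold (1 higher, 2 lower), against 20 of the 33 EdulChr genes, all lower. Among genes with the wild minimum 44.1% of number-only and 49.1% of EdulChr IDs changed. After scaling 6 of the 16 were higher and 0 lower (37.5 and 0%, against 28.9 and 10.1% of number-only IDs with the wild minimum). Of the 33 EdulChr genes 7 were higher and 11 lower (21.2 and 33.3%, against 23.3 and 11.4% of EdulChr IDs with the wild minimum). Both directions thus depend on the scaling. The part of the lower level in this was not tested. Of the 10 wild-only genes listed at 0 in every cultivated library, 5 had number-only IDs (novel2911, novel3294, novel359, novel3329 and novel2302) and 5 had EdulChr IDs. The last were EdulChr10G00043890, EdulChr83G00271180, EdulChr75G00252450, EdulChr50G00184110 and EdulChr60G00210970.

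Values above 0 in cultivated corms were not spread evenly over stages. Of 147 values per stage (49 genes in 3 libraries), 105 were above 0 at the initial stage, 56 at middle, 42 in late swelling and 31 at maturity. As percentages these were 71.4, 38.1, 28.6 and 21.1%. In 30 of the 39 genes with any cultivated signal the cultivated mean was highest at the initial stage (76.9%). EdulChr44G00165930 was an example, with 0.40, 0.40 and 0.39 TPM at initial, 0.14, 0 and 0.15 at middle, and 0 in all 6 later libraries. EdulChr105G00322330 likewise stood at 0.32, 0.33 and 0.25 TPM at initial and at 0 in the 9 others. A comparable slope was seen in all 4023 genes that stayed under 0.5 TPM in every cultivated library with a value above 0 in at least 1. There 61.6, 26.9, 28.7 and 23.9% of values were above 0 at the respective stages, against 89.7, 47.9, 35.9 and 26.5% for the 39. The cultivated mean was highest at the initial stage in 64.5% of the 4023. These levels are near the 2-decimal resolution of the table, and the part of depth was not tested.

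The 33 EdulChr genes carried 24 of the 111 numbers that follow the letters EdulChr, with 2 genes on each of 9 numbers and never more. ID numbers rise in steps of 10 within such a series, in 33231 of 33304 steps. That the order of numbers is an order along a chromosome is not stated in the sources used here, and no coordinates were used. EdulChr44G00165920 and EdulChr44G00165930 were direct neighbours by number. EdulChr13G00058320 and EdulChr13G00058340 were 2 places apart, EdulChr49G00180100 and EdulChr49G00180170 were 7, and EdulChr101G00314650 and EdulChr101G00314780 were 13. EdulChr98G00309000 and EdulChr98G00309240 were 24 places apart, and the other 4 pairs 35 to 150.

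The 2 EdulChr101 genes had like profiles. EdulChr101G00314650 held 10.5, 9.14 and 11.1 TPM at initial, 4.84, 5.99 and 4.00 at middle, 23.9, 27.4 and 22.4 in late swelling, and 2.43, 2.09 and 3.28 at maturity. EdulChr101G00314780 held 13.8, 11.8 and 11.6 TPM at initial, 6.31, 5.82 and 5.41 at middle, 25.6, 25.1 and 27.0 in late swelling, and 2.94, 3.77 and 3.20 at maturity. Both were highest at late swelling with no overlap with other stages, and their ranges overlapped at middle, late and maturity. The EdulChr49 pair, in contrast, went different ways: from middle to late EdulChr49G00180170 rose by 2.56 while EdulChr49G00180100 changed by -1.73 (log2, limma adjusted p = 2.37e-13 and 4.34e-11). The EdulChr13 pair differed as well, since EdulChr13G00058340 rose from 4.31 ± 0.253 to 13.4 ± 0.932 TPM in that step (SD, n = 3 each) and EdulChr13G00058320 did not pass the test (adjusted p = 0.333).

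Direct neighbours by ID were mostly genes with other levels. Of 65 such IDs, each counted once, 32 had a cultivated mean of at least 2 TPM (49.2%, against 55.7% of all EdulChr IDs) and 18 had a mean under 0.5 TPM in both origins (27.7%, against 25.9%). A wild mean of at least 2 TPM with a cultivated mean under 0.5 TPM was found in 6 of them (9.23%, against 3.06% of all EdulChr IDs). These limits and the neighbours named next were chosen after the values were seen. Of the 6, 2 were the EdulChr44 pair itself, and the others were EdulChr13G00058330, EdulChr36G00141220, EdulChr12G00051450 and EdulChr86G00281830. The pair met these limits by the rule, so the 9.23% was partly fixed in advance. It is not read as a result about neighbours.

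The series around the EdulChr44 pair held further genes with the same contrast that missed the rule. EdulChr44G00165910, next to the pair, had wild means of 678 ± 15.5 TPM at initial, 991 ± 25.8 at middle, 257 ± 8.73 in late swelling and 8.80 ± 2.06 at maturity (SD, n = 3 each), and up to 3.67 TPM in cultivated corms. EdulChr44G00165870 went from 62.1 ± 4.54 and 99.1 ± 3.86 TPM at initial and middle to 8.67 ± 0.373 and 1.76 ± 0.643 TPM in late swelling and maturity (SD, n = 3 each), with at most 0.55 TPM in cultivated corms. EdulChr44G00165860 stood at 74.1 ± 10.9, 106 ± 12.8 and 115 ± 16.6 TPM in the first 3 stages and at 0.673 ± 0.778 TPM at maturity (SD, n = 3 each), with at most 0.26 TPM in cultivated corms. By deposited stage means all 3 were lowest at maturity, like the pair itself. This low is not particular to the series, since 27 of the wild-only genes, the pair among them, were lowest at maturity in deposited TPM. The share of genes with the wild minimum that were lowest there was not counted. The 27 are therefore not read as a trait of the wild-only genes. The median change of all genes tested from initial to maturity was -0.99 (log2) in deposited TPM. Late and mature libraries of EdulChr44G00165920 overlapped, at 3.25 to 6.36 and 2.51 to 4.58 TPM. After median-of-ratios scaling its change from late swelling to maturity was 0.24 (log2, limma adjusted p = 0.271). The contrast did not run through the series: EdulChr44G00165900 had a mean of 20.9 TPM in cultivated and 1.81 TPM in wild corms, and EdulChr44G00165890 and EdulChr44G00165940 were listed at 0 in every wild library.

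EdulChr36G00141220, beside EdulChr36G00141210, was listed at 0 in every cultivated library and in the 3 mature wild libraries. It stood at 37.2 ± 0.761 TPM at initial, 94.5 ± 6.30 at middle and 10.5 ± 1.22 at late swelling in wild corms (SD, n = 3 each). It thus failed the rule at wild maturity alone, where its neighbour still held 24.4 ± 1.13 TPM (SD, n = 3). EdulChr13G00058330, which lies by number between the 2 EdulChr13 genes, ranged from 0 to 8.87 TPM in wild and from 0 to 2.68 TPM in cultivated libraries.

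**Figure D5:**
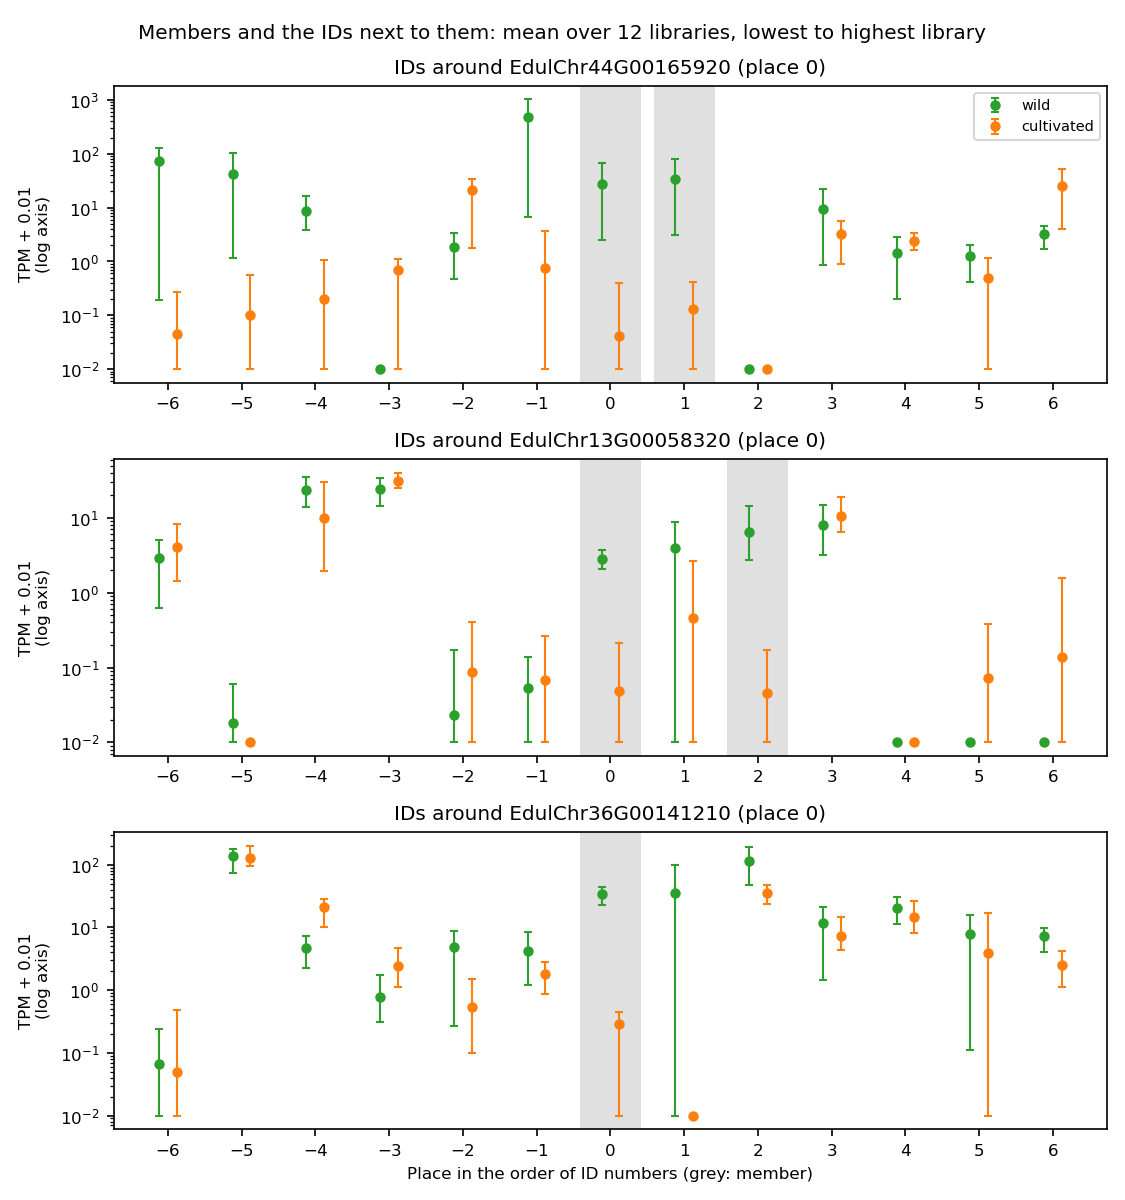
TPM plus 0.01 (y, log axis) of the IDs 6 places to each side of EdulChr44G00165920, EdulChr13G00058320 and EdulChr36G00141210 in the order of ID numbers (x), as the mean over 12 libraries with bars from the lowest to the highest library, wild in green and cultivated in orange. Wild-only genes are shaded grey; in the upper panel places -6 to -4 and -1 also show wild means of 8.70 to 484 TPM against cultivated means under 1 TPM, while place -2 shows the opposite contrast.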

How the data were processed

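RNA from corms was sequenced in 24 libraries. The authors deposited 1 table of TPM values, rounded to 2 decimals, with 1 row per gene. The submitters' processing notes list HISAT2 2.0.4, StringTie 2.1.6 and DESeq2 but not what each did. Genome build, annotation and any filter: not given in the sources used here. Columns were matched to samples by origin letter, stage digit and replicate number against the titles, and 0 columns were left over. TPM carries no depth, so no counting interval is given.

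The wild-only genes, the tests and the rules for naming genes were chosen with earlier results of these data known. Named genes were the 10 with the highest wild mean, up to 5 called rises and 5 falls from initial to maturity, the 3 steadiest, those at the limits of the rule, and direct neighbours by ID; others are named as examples and were chosen after their values were seen.

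Stage changes in wild corms were tested on log2(TPM + 1) with limma 3.58.1 in R 4.3.3 (eBayes with trend), on the 12 wild libraries with 4 group means, for 25235 genes with at least 1 TPM in at least 3 of them, with Benjamini-Hochberg adjustment. Cultivated libraries were kept out because values near 0 there would shrink the estimated spread. The procedure was tested on simulated data, in which a part of the genes changed at maturity with no shift shared by all genes. That test therefore does not bear on calls that moved after scaling. Replicate numbers did not pair the samples. Alternatives were a pseudocount of 0.1, no filter, a mean of at least 5 TPM, median-of-ratios scaling, all 24 libraries, a replicate block, no limit on fold, each library left out, other limits of the rule and, added after seeing the data, removal of the 10 highest genes. No pathway list could be applied, and correlations among members over the 4 stages were not computed.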

Additional observations from a re-analysis of the deposited data

How the results depend on the processing

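The number of wild-only genes follows its limits. It was 21 at 1 and 0.1 TPM, 95 at 1 and 0.5, 11 at 2 and 0.1, 14 at 5 and 0.5, and 89 at 2 and 1 (wild minimum and cultivated maximum), and 85 after median-of-ratios scaling, with 45 of the 49 among them. Without any single library or replicate number it was 49 to 59. The genes chosen without replicate number 1, 2 or 3 were 57, 59 and 58, of which 49 each time also met the limits in the libraries left out. Under the rule, leaving libraries out can only add genes, so the return of the 49 was fixed in advance. After scaling, 11, 5 and 20 genes were highest at initial, middle and maturity, as given above, 0 were higher from initial to middle, 5 were lower from middle to late, 7 were higher from late to maturity, and 13 were higher and 11 lower from initial to maturity. With no limit on fold 10 were higher and 24 lower from initial to middle, 24 lower from middle to late, 10 higher from late to maturity, and 7 higher and 35 lower from initial to maturity. Removal of the 10 highest genes gave 7 higher from late to maturity and 4 higher from initial to maturity, and a pseudocount of 0.1 gave 2 higher from late to maturity. Shares of all genes were not counted with no limit on fold, without the 10 highest genes or with this pseudocount. These counts are therefore not read as a trait of the wild-only genes. Leaving out each wild library in turn gave 1 to 2 higher from initial to middle (1 without replicate 1 of wild middle) and 1 to 3 higher from late to maturity (3 without replicate 1 of wild late, 2 without replicate 1 of wild maturity). Changes from initial to maturity turned in 17 of the 49 after scaling, among the genes named by rule those of EdulChr13G00058320 (0.76), EdulChr36G00141210 (0.76), EdulChr75G00252450 (0.089) and novel2911 (1.02). Without the 10 highest genes, among the genes named by rule, they turned for EdulChr13G00058320 (0.29), EdulChr36G00141210 (0.16) and novel2911 (0.44). The cause was not tested, and the share of all genes that turned was not counted. Same-numbered libraries had correlations of -0.0913 to 0.0793 in their deviations from the group means, over 18 pairs, so the numbers were not taken as pairs. A replicate block gave the same counts of higher and lower genes in every comparison, for example 11 lower from initial to middle and 22 from initial to maturity, and 49 in place of 48 genes with any stage difference. Depth is unknown, so values under 0.5 TPM cannot be given a limit of detection.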
